A study of Mus musculus with 6 samples.

Results

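The antioxidant genes described here are the superoxide dismutase genes Sod1 and Sod2, the peroxiredoxin genes Prdx1, Prdx5 and Prdx6, the catalase gene Cat, the thioredoxin reductase gene Txnrd1, the glutamate-cysteine ligase modifier gene Gclm, the sulfiredoxin gene Srxn1, and Nfe2l2, which encodes the transcription factor NRF2. They were chosen by gene symbol, and all 10 were found among the 26835 genes with values. RNA had been sequenced from primary macrophages grown from the marrow of WT BALB/C mice aged 5 to 8 weeks, cultured for 6 days in 10% serum with M-CSF at 25 ng/ml, the growth factor that drives marrow cells into macrophages. The K7M2-EV cells received 10 µg of extracellular vesicles released by K7M2, a mouse osteosarcoma cell line, for 24 h. The control cells received PBS (phosphate-buffered saline) for the same time. Each group held 3 libraries labelled as biological replicates and described as independent experiments. The labels give no animal for any of them, so the p-values measure the spread between these libraries. PBS carries no vesicles, and vesicles of another cell line are not among the 6 libraries. The values are FPKM, that is, fragments scaled to gene length and to the library total.

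Superoxide dismutases turn superoxide into hydrogen peroxide, Sod1 in the cytosol and Sod2 in the mitochondrial matrix. Catalase, peroxiredoxins and glutathione peroxidases then remove the peroxide, and thioredoxin, glutathione and NADPH restore the peroxidases. NRF2 is held at low level by KEAP1, which marks it for degradation, and under oxidative or electrophilic stress it binds antioxidant response elements (AREs) of genes such as Gclm, Srxn1, Txnrd1 and Prdx1. In activated macrophages Sod2 is also a well-known target of NF-κB. Control of NRF2 acts largely on the protein, which RNA does not show.

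The ARE core was searched as TGACNNNGC on both strands of the RefSeq promoter windows (GRCm38.p6, 250 bases before to 50 after a transcript start). Of the 10 genes, 9 had windows there, 11 in all, and Prdx6 had none. A match was present for 6 genes, in 1 of the 3 starts of Txnrd1 and in the single window of each other gene. Among all 32851 promoter windows, 12.4% held such a match. The 6 matches are shown because they let the ARE cores of genes that rose, fell or were not called be compared. Each is written 5′ to 3′ on the strand that carries the core, here the minus strand, with the core in capitals and 10 bases on either side.
Gclm (chr3:122245413-122245441): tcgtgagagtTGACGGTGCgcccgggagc
Txnrd1 (chr10:82859104-82859132): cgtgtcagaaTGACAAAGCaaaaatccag
Prdx1 (chr4:116685456-116685484): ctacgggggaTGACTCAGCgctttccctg
Srxn1 (chr2:152105542-152105570): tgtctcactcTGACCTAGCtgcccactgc
Sod1 (chr16:90220696-90220724): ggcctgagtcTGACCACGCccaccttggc
Nfe2l2 (chr2:75704885-75704913): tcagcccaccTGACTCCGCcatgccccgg
The core lay 134 bases before the start in Gclm, 92 in Txnrd1, 133 in Prdx1, 56 in Sod1 and 240 in Nfe2l2, and 28 bases after it in Srxn1. The Prdx1 core overlaps the AP-1 motif (TGANTCA, in 7.81% of all windows), Prdx1 holds a further AP-1 match, and Srxn1 holds 2. In Srxn1 the AP-1 match 45 bases before the start reads TGAGTCAgc. It has G where the searched core has C, so the search did not count it as an ARE core. The windows of Sod2, Prdx5 and Cat held no ARE core. That says only that these letters are not in those windows.

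The promoters of the 3 genes with the largest rises below are given in full for the 250 bases before the start, on the coding strand. For Sod2 the RefSeq start used lies at 13007839. The gene span given below comes from another annotation (GENCODE) and begins at 13006846, so the printed Sod2 bases lie inside that span. Capitals mark the NF-κB consensus in Sod2 and the ARE core, read from the other strand, in Gclm; Prdx5 held neither.
Sod2 (chr17:13007589-13007838, plus strand): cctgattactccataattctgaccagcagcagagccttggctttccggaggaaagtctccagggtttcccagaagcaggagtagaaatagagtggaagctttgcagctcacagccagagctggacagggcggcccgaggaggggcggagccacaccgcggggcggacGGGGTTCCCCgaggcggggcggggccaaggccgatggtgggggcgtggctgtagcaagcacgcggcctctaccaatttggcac
Prdx5 (chr19:6910107-6910356, minus strand): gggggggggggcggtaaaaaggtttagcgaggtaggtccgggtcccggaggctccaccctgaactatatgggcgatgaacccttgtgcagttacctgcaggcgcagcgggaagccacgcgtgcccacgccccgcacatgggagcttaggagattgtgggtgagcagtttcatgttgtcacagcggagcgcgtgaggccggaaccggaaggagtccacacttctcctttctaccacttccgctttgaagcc
Gclm (chr3:122245307-122245556, plus strand): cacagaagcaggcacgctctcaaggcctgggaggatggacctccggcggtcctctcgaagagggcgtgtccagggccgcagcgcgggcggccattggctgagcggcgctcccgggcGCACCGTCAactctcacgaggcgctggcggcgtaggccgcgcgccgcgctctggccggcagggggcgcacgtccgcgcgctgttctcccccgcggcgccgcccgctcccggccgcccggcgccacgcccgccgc
The 1 NF-κB site of Sod2 matches the consensus on both strands, as GGGGTTCCCC on the plus strand and GGGGAACCCC on the minus strand. It starts 83 bases before the transcript start. The consensus occurred in 4.51% of all windows and, among these genes, also in the window of Prdx1.

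The spacing of low FPKM values implied 21435194 to 25604526 reads per library. Of 13009 genes tested on log2(FPKM + 1) with limma, 54% were called with vesicles at a Benjamini-Hochberg adjusted p under 0.05 (18.4% higher, 35.6% lower). In 63.8% every library of 1 group lay beyond every library of the other. The median log2 fold change of all tested genes was -0.12. Median-of-ratios scaling, which brings that median to -0.0024, gave 3445 higher and 3376 lower genes, against 2395 and 4631 without it, and quantile normalization gave 3135 and 3282. All 8 macrophage markers were measured, with Adgre1 (F4/80) at 140 FPKM or more and Csf1r at 157 FPKM or more in every library, and 6 rose and Cd68 fell. Their summed level was 12470 to 13950 FPKM with vesicles and 4077 to 4963 FPKM with PBS. Lyz2 carried most of that sum, at 9827 to 11490 FPKM with vesicles and 3283 to 3991 FPKM with PBS. Adgre1 averaged 1824 and 170 FPKM, Csf1r only 230 and 179 FPKM, and Mertk was not called. Of 13 stromal and osteosarcoma markers, which also mark the cells the vesicles come from, 6 were tested, of which none rose by limma. Runx2 fell, and it had passed the filter only through the PBS libraries, where it is high. Their summed level was 206 to 574 FPKM with vesicles and 124 to 295 FPKM with PBS, highest in replicate 2 of each group. Col1a1 had 131, 354 and 128 FPKM with vesicles, against 65.4, 155 and 74.3 FPKM with PBS, and was not called (limma, adjusted p = 0.134). Col1a2 held 20.6 to 89.3 FPKM and Sparc 28.2 to 80.6 FPKM over all libraries. Lum, Thy1, Ibsp and Bglap were each listed at 0 in at least 1 library. Of 9 neutrophil markers with values, 4 were tested and 3 of them rose (S100a8, Mmp8 and Camp, the last having passed the filter only through the vesicle libraries), and their sum was 54.7 to 69.4 FPKM with vesicles and 5.62 to 7.90 FPKM with PBS, carried by S100a8 and Mmp8. The granule gene Mpo reached at most 0.0292 FPKM and the surface marker Ly6g at most 0.107 FPKM in any library.

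All 10 antioxidant genes passed the filter of at least 1 FPKM in at least 3 libraries, and none passed through 1 group alone. With vesicles 6 of them were higher, 1 was lower and 3 were not called, beside 18.4% higher and 35.6% lower of all tested genes. The groups did not overlap in 7 of 10, beside 63.8% of all tested genes. The median log2 fold change of the 10 was 0.30. Sod2 and Prdx5 made by far the largest changes of the 10, and Nfe2l2 was the gene that was lower. The product of Sod2 works in mitochondria and that of Prdx5 there and elsewhere. The classes set side by side below had medians of -0.07 (mitochondrial, without Prdx5) and 0.13 (cytosolic). In these bulk libraries, fewer cells of a type and less RNA per cell cannot be told apart.

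**Figure D1:**
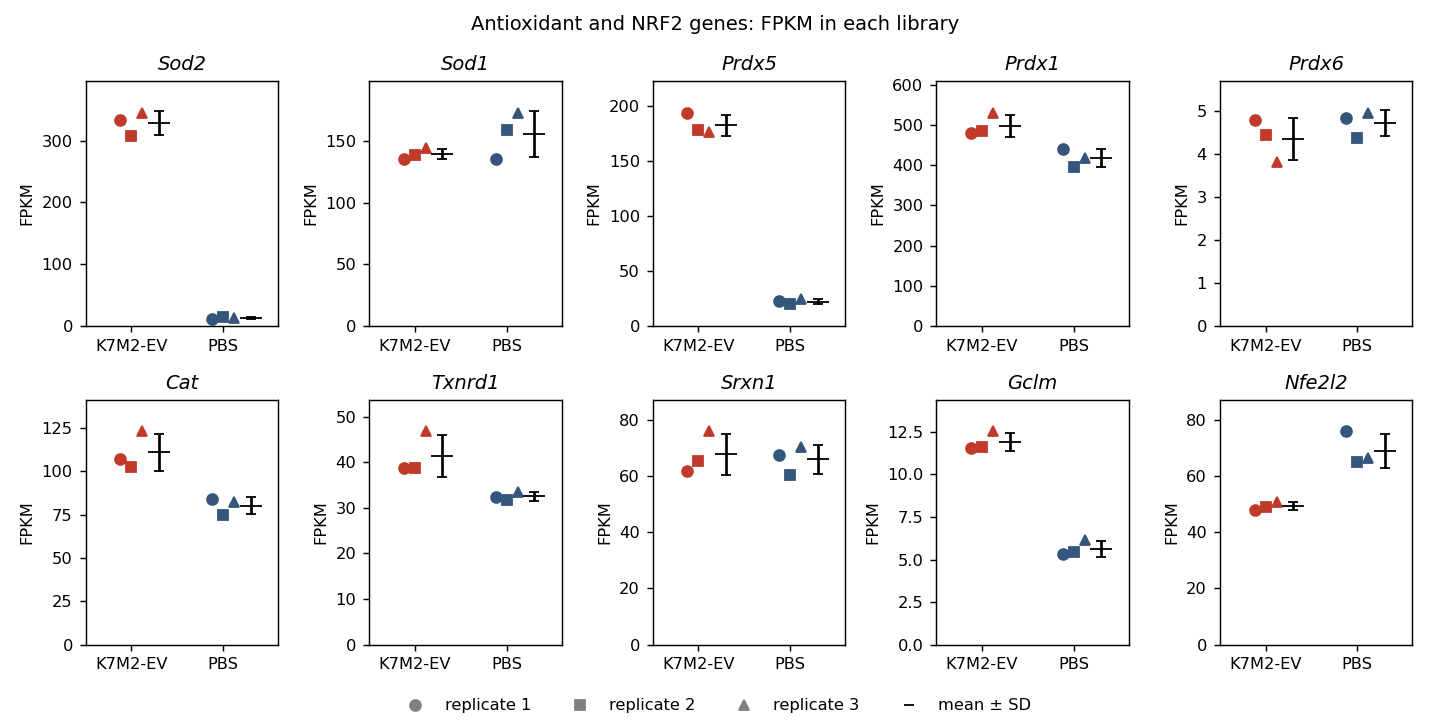
FPKM (y axis, linear from 0) of each gene in the 3 K7M2-EV libraries (left, red) and the 3 PBS libraries (right, blue), with marker shapes for the replicate numbers and the mean ± SD (n = 3) beside them. Sod2 and Prdx5 stand far apart between the groups, Sod1, Prdx6 and Srxn1 overlap, and Nfe2l2 is lower in every vesicle library.

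Sod2, on chromosome 17 at 13006846 to 13040063 (GRCm38, plus strand), had 334, 307 and 345 FPKM in vesicle-treated replicates 1 to 3, against 11.8, 14.2 and 13.2 FPKM in PBS replicates 1 to 3. Every vesicle library lay far above every PBS library. The group means were 329 ± 19.2 and 13.1 ± 1.22 FPKM (SD, n = 3 each), a ratio of 25.1. The log2 fold change on the FPKM + 1 scale was 4.55 ± 0.0830 (SE; limma, adjusted p = 7.78e-07), which ranked 23 of 13009 genes by size of rise. About 67930 to 82940 reads lay behind each vesicle value and 2594 to 3391 behind each PBS value. Summed macrophage markers, carried mostly by Lyz2, and summed neutrophil markers were also higher with vesicles, as given above. Of the neutrophil genes, S100a8, Mmp8 and Camp rose, and Mpo and Ly6g were near 0. S100a9 was not called (log2 fold change -0.22, limma adjusted p = 0.662), and Ltf, Ngp and Retnlg stayed below 1 FPKM in every library. What part such cells had in the rise of Sod2 was not tested. In replicate 2, where stromal markers were highest, Sod2 was the lowest of the vesicle libraries and the highest of the PBS libraries.

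Sod1, the cytosolic enzyme (chromosome 16, 90220754 to 90226329, plus strand), had 136, 139 and 145 FPKM with vesicles, against 136, 159 and 173 FPKM with PBS. The groups overlapped, since PBS replicate 1 lay at the level of the vesicle libraries. The log2 fold change was -0.15 with a 95% interval of -0.38 to 0.08 (limma, adjusted p = 0.223). Without PBS replicate 1 Sod1 was called lower (-0.25, adjusted p = 0.0271), and after median-of-ratios scaling its value was -0.0045. A processed pseudogene 97.8% identical to Sod1 over 465 bases, Gm8566, held 14.0 to 14.8 FPKM with vesicles and 14.5 to 15.7 FPKM with PBS, and how reads were divided between them is not given in the sources.

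Within each library the ratio of Sod2 to Sod1 was 2.45, 2.22 and 2.38 with vesicles, against 0.0868, 0.0894 and 0.0764 with PBS. On the deposited FPKM, Sod2 was the larger of the pair in every vesicle library and the smaller in every PBS library. The log2 ratio differed by 4.805 between the groups (1.23 ± 0.0755 against -3.57 ± 0.120, SD, n = 3 each; exact two-sided permutation test, p = 0.1, the smallest that 3 against 3 libraries allow). Which of the pair is larger depends on the gene lengths used: annotated exons of Sod1 cover 3970 bases although its longest coding transcript has 641, and for Sod2 these are 10008 and 5861 bases. Per base of the longest coding transcript, a setting chosen after seeing the data, the ratio was 0.676, 0.611 and 0.657 with vesicles, against 0.0239, 0.0246 and 0.0211 with PBS. Sod1 was then the larger in all 6 libraries. The difference between groups does not depend on length.

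The peroxiredoxins, thiol peroxidases that differ in their compartments, moved unequally. Prdx5, whose product is found in mitochondria, peroxisomes and cytosol (chromosome 19, 6906697 to 6910106, minus strand), had 194, 178 and 176 FPKM with vesicles, against 22.8, 19.8 and 24.1 FPKM with PBS. The groups were far apart, with means of 183 ± 9.55 and 22.2 ± 2.19 FPKM (SD, n = 3 each), a ratio of 8.21. The log2 fold change was 2.99 ± 0.0847 (SE; limma, adjusted p = 3.29e-06), rank 83 of 13009 by size of rise. On the opposite strand 409 exonic bases of Prdx5 are shared with Trmt112, and the strand setting of the counting is not known from the labels. Trmt112 held 3.00 to 3.63 FPKM with vesicles and 2.63 to 3.01 FPKM with PBS.

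Prdx1, a cytosolic peroxiredoxin with the highest deposited FPKM of the 10 (chromosome 4, 116685544 to 116700822, plus strand), had 479, 486 and 530 FPKM with vesicles, against 439, 396 and 417 FPKM with PBS. Each vesicle library was above each PBS library, by a small margin. The means were 498 ± 27.4 and 417 ± 21.7 FPKM, a rise of 19.4%, with a log2 fold change of 0.26 ± 0.0672 (SE; limma, adjusted p = 0.0182). That call was not stable: it was lost without K7M2-EV replicate 3 (adjusted p = 0.0669), without PBS replicate 3 (0.0546), without both libraries of replicate 2 (0.0675) or 3 (0.159), and in a voom fit (0.0521). The pseudogenes Gm21399 and Gm7204, 98.3% and 97.5% identical to Prdx1 over 597 bases, held 56.6 to 71.6 and 17.6 to 20.8 FPKM with vesicles and 46.4 to 57.8 and 13.6 to 16.3 FPKM with PBS.

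Prdx6, a peroxiredoxin that also acts as a phospholipase (chromosome 1, 161240112 to 161251219, minus strand), had the lowest deposited FPKM of the 10, with 4.78, 4.45 and 3.82 FPKM with vesicles, against 4.83, 4.37 and 4.95 FPKM with PBS. The groups overlapped. Its log2 fold change was -0.10 with a 95% interval of -0.30 to 0.10 (limma, adjusted p = 0.361), and after median-of-ratios or quantile scaling the sign turned to 0.02 in each. Between 442 and 609 reads lay behind each value.

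Cat, whose product removes hydrogen peroxide in peroxisomes (chromosome 2, 103453849 to 103485160, minus strand), had 107, 102 and 123 FPKM with vesicles, against 83.8, 74.5 and 82.1 FPKM with PBS. The groups did not overlap, and the means of 111 ± 10.7 and 80.2 ± 4.96 FPKM differed by 38.3%. The log2 fold change was 0.46 ± 0.0872 (SE; limma, adjusted p = 0.00478). It was called in all 18 alternative fits, with adjusted p up to 0.0479.

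**Figure D2:**
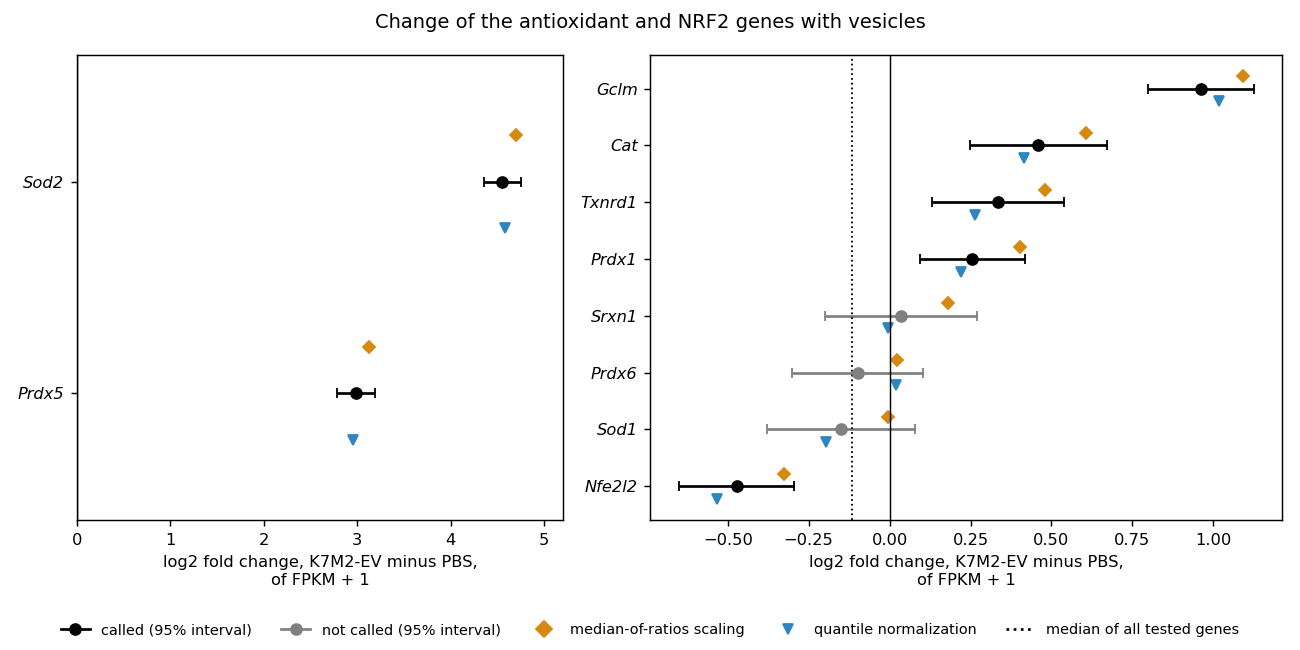
Log2 fold change of FPKM + 1, K7M2-EV minus PBS (x axis), with 95% intervals from the limma fit over 3 libraries per group; black circles passed an adjusted p under 0.05 and grey ones did not. Orange diamonds and blue triangles give the same value after median-of-ratios and quantile scaling, which moved Sod2 to 4.69 and 4.58 and Nfe2l2 to -0.33 and -0.53, and the dotted line in the right panel is the median of all tested genes at -0.12.

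Of Gclm, Txnrd1 and Srxn1, Gclm changed most. It encodes the modifier subunit of glutamate-cysteine ligase, the first enzyme of glutathione synthesis (chromosome 3, 122245557 to 122270732, plus strand). Its FPKM were 11.6, 11.6 and 12.5 with vesicles, against 5.30, 5.43 and 6.17 with PBS. All vesicle libraries lay well above the PBS libraries. The means were 11.9 ± 0.538 and 5.64 ± 0.471 FPKM, a ratio of 2.11, with a log2 fold change of 0.96 ± 0.0676 (SE; limma, adjusted p = 6.81e-05). It rested on 1614 to 1894 reads per vesicle library and 732 to 994 per PBS library. An overlapping pseudogene on the same strand, Gm6061, shares 244 exonic bases with Gclm and held 64.3 to 76.5 FPKM with vesicles and 63.3 to 86.7 FPKM with PBS. Its groups overlapped, and its part in the Gclm values was not tested.

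The catalytic subunit gene Gclc, named after its values were seen, did not move with Gclm. It had 15.4, 13.9 and 17.4 FPKM with vesicles, against 18.4, 18.6 and 20.4 FPKM with PBS, so that it was lower in every vesicle library where Gclm was higher. Its log2 fold change was -0.28 ± 0.0879 (SE; limma, adjusted p = 0.0330). This small fall lost its call after median-of-ratios scaling (-0.14, adjusted p = 0.240), without a filter (0.0621), and without K7M2-EV replicate 1 (0.0872) or 2 (0.0779) or any single PBS library (0.0571 to 0.108), and without both libraries of any replicate number (0.0541 to 0.130).

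Txnrd1, the cytosolic reductase that recharges thioredoxin (chromosome 10, 82833951 to 82897712, plus strand), had 38.8, 38.8 and 46.7 FPKM with vesicles, against 32.3, 31.6 and 33.5 FPKM with PBS. The groups were separate, and vesicle replicate 3 stood above its companions. The means of 41.4 ± 4.597 and 32.5 ± 0.962 FPKM differed by 27.4%, with a log2 fold change of 0.34 ± 0.0842 (SE; limma, adjusted p = 0.0152). The call was lost when both libraries of replicate 1 (adjusted p = 0.0637) or replicate 3 (0.0618) were dropped.

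Srxn1, which repairs over-oxidised peroxiredoxins (chromosome 2, 152105516 to 152111376, plus strand), had 61.8, 65.4 and 75.8 FPKM with vesicles, against 67.3, 60.1 and 70.2 FPKM with PBS. The groups overlapped, with vesicle replicate 3 the highest library and PBS replicate 2 the lowest. The log2 fold change was 0.04 with a 95% interval of -0.20 to 0.27 (limma, adjusted p = 0.777), and its sign turned with the scaling and with the libraries kept. Its promoter window holds an ARE core, as do those of Gclm, Txnrd1 and Prdx1.

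Nfe2l2 itself (chromosome 2, 75675513 to 75704641, minus strand) had 48.1, 49.2 and 51.0 FPKM with vesicles, against 76.0, 64.9 and 66.4 FPKM with PBS. It was lower in every vesicle library. It fell to 49.4 ± 1.46 FPKM with vesicles, against 69.1 ± 6.00 FPKM with PBS (SD, n = 3 each), a log2 fold change of -0.47 ± 0.0737 (SE; limma, adjusted p = 0.00209). It was called lower in all 18 alternative fits, with values from -0.56 to -0.33. The RNA of the transcription factor was lower in the same libraries in which the RNA of Gclm and Txnrd1 was higher, and NRF2 protein was not measured.

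By level on the deposited FPKM scale, the order with vesicles was Prdx1, Sod2, Prdx5, Sod1, Cat, Srxn1, Nfe2l2, Txnrd1, Gclm and Prdx6. With PBS it was Prdx1, Sod1, Cat, Nfe2l2, Srxn1, Txnrd1, Prdx5, Sod2, Gclm and Prdx6. With vesicles no neighbours in that order overlapped between libraries. With PBS the ranges of Cat and Nfe2l2 touched, as did those of Nfe2l2 and Srxn1, and their order is not resolved. The order also depends on the lengths used. Per base of the longest coding transcript, Sod1 came first with 866 ± 27.1 with vesicles and 967 ± 117 with PBS, and Prdx1 second with 661 ± 36.3 with vesicles and 553 ± 28.8 with PBS, in rescaled FPKM (SD, n = 3 each). The 10 genes together summed to 1382 to 1508 FPKM with vesicles and 830 to 891 FPKM with PBS.

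Antioxidant enzymes of the mitochondria were set beside those of the cytosol. Of 8 mitochondrial genes, 7 were tested, of which 3 were higher, 2 lower and 2 not called, with a median log2 fold change of -0.07. With a filter at 5 FPKM, which Msrb2 did not pass, 1 was lower. Of 13 cytosolic genes, all tested, 6 were higher, 2 lower and 5 not called, with a median of 0.13. All tested genes had 18.4% higher and 35.6% lower and a median of -0.12. The 2 cytosolic genes called lower were Gclc and Ccs, named after their values were seen. That count was 0 under median-of-ratios scaling, with no filter, without K7M2-EV replicate 1, without PBS replicate 3, and without both libraries of replicate 1 or 3. It was 1 with the replicate block and without each other single library. The count of cytosolic genes called higher was 3 without both libraries of replicate 3. Summed over each class, mitochondrial genes held 361 to 394 FPKM with vesicles and 54.4 to 60.0 FPKM with PBS. Without Sod2 the other 7 mitochondrial genes held 49.1 to 53.5 FPKM with vesicles and 42.6 to 46.8 FPKM with PBS. Sod2 thus made up most of the difference in the sums. The cytosolic sum was 1073 to 1190 FPKM with vesicles and 916 to 952 FPKM with PBS.

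The mitochondrial peroxide-removing pair Prdx3 and Txn2 rose. Prdx3, the matrix peroxiredoxin, averaged 32.2 ± 1.76 FPKM with vesicles and 21.6 ± 0.890 FPKM with PBS (log2 fold change 0.56, limma adjusted p = 0.000454). Txn2, the mitochondrial thioredoxin, averaged 4.67 ± 0.315 FPKM with vesicles and 3.55 ± 0.317 FPKM with PBS (0.32, adjusted p = 0.0124), and dropping both replicate 1 libraries (0.0945) or both replicate 2 libraries (0.0588) ended this call. In contrast Nnt, the transhydrogenase that makes NADPH in the inner membrane, fell to 3.70 ± 0.397 FPKM with vesicles, against 6.62 ± 0.282 FPKM with PBS (-0.70, adjusted p = 0.000408). Msrb2, a methionine sulfoxide reductase gene, fell to 1.85 ± 0.287 FPKM, against 3.53 ± 0.548 FPKM with PBS (-0.67, adjusted p = 0.00331). Txnrd2, the reductase of Txn2, and Glrx5, an iron-sulfur cluster glutaredoxin, had values of -0.14 and -0.07 and were not called. The groups did not overlap in Txnrd2, and a voom fit called it lower (-0.27, adjusted p = 0.0296). Glrx2 stayed below the filter at 0.902 to 0.982 FPKM with vesicles and 0.666 to 0.965 FPKM with PBS.

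**Figure D3:**
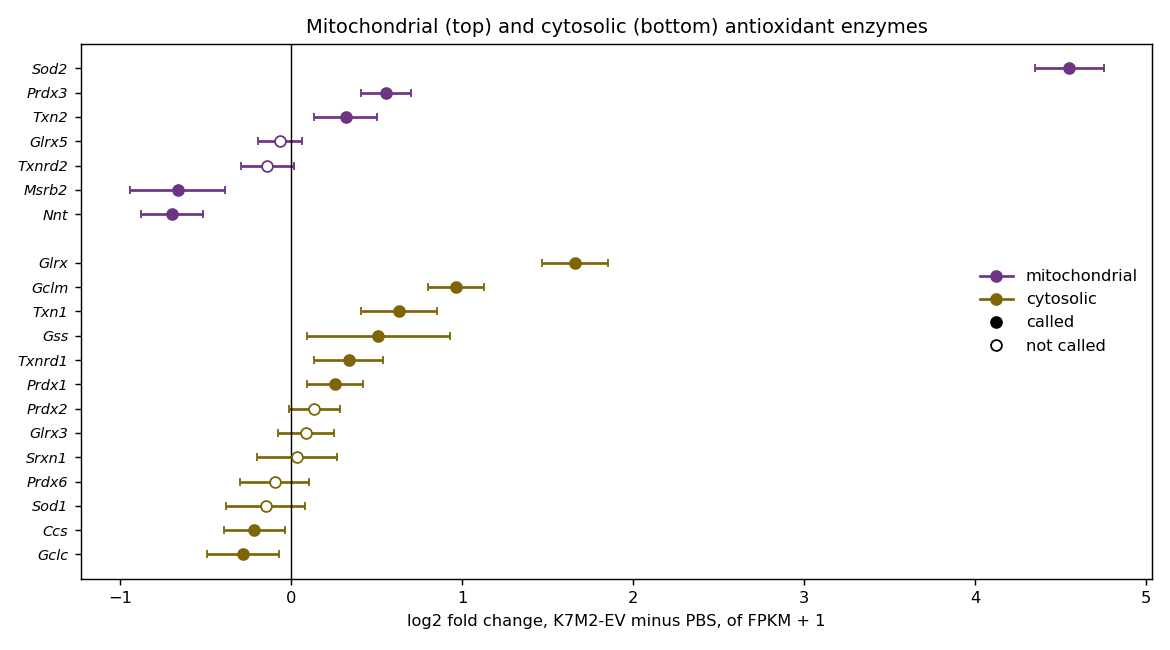
Log2 fold change of FPKM + 1, K7M2-EV minus PBS (x axis), with 95% intervals from limma (3 libraries per group) for 7 mitochondrial genes (purple, top) and 13 cytosolic genes (ochre, bottom); filled circles were called and open ones were not. Sod2 lies at 4.55, while the other mitochondrial genes lie between -0.70 and 0.56 and the cytosolic genes between -0.28 and 1.66.

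The wider pathway was read from 69 other genes in 5 lists. Of these 64 passed the filter, and 22 were higher, 19 lower and 23 not called, with a median log2 fold change of 0.09. The shares of 34.4% higher and 29.7% lower stand beside 18.4% and 35.6% of all tested genes. After median-of-ratios scaling 30 were higher and 15 lower.

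Other NRF2 targets had 9 of 17 higher, 3 lower and 5 not called, a median log2 fold change of 0.25, or 52.9% and 17.6% beside the 18.4% and 35.6% of all tested genes. Fth1, the iron-storing ferritin heavy chain gene, had a log2 fold change of 1.67 (adjusted p = 1.41e-05). Nqo1, a quinone reductase gene and classical NRF2 target, averaged 11.7 ± 2.48 FPKM with vesicles and 3.94 ± 0.713 FPKM with PBS (1.36, limma adjusted p = 0.000654). Abcc1, a glutathione-conjugate exporter gene, rose by 1.24 on the log2 scale. Hmox1, the haem-degrading enzyme gene, named after its values were seen, averaged 126 ± 9.92 FPKM with vesicles and 75.9 ± 0.933 FPKM with PBS (0.72, adjusted p = 0.000286). Ephx1, an epoxide hydrolase gene, and Idh1, a cytosolic NADPH source, fell by 1.43 and 0.80 on the log2 scale.

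Of the 12 genes of glutathione synthesis and use that passed the filter, 4 rose, 4 fell and 4 were not called, or 33.3% each way beside 18.4% higher and 35.6% lower of all tested genes. With a filter at 5 FPKM 2 of them rose, and the other risen genes did not pass that filter. Slc7a11, the cystine importer that feeds glutathione synthesis, averaged 13.2 ± 2.68 FPKM with vesicles and 3.36 ± 0.697 FPKM with PBS (log2 fold change 1.71, limma adjusted p = 0.000284). Gsr, which reduces oxidised glutathione, averaged 74.3 ± 7.30 FPKM with vesicles and 31.6 ± 1.65 FPKM with PBS (1.21, adjusted p = 6.77e-05). Chac1, which degrades glutathione, rose as well, by 1.247. The microsomal glutathione transferase gene Mgst3 had 4.51, 3.99 and 3.98 FPKM with vesicles, against 32.4, 32.99 and 29.0 FPKM with PBS. That fall of 2.65 on the log2 scale (adjusted p = 2.83e-06) was the largest of the 64 genes, and Gsto1 fell by 0.67.

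In the thioredoxin and glutaredoxin systems, 5 of the 15 genes that passed the filter rose, 4 fell and 6 were not called, or 33.3% and 26.7% beside the same background. The rises numbered 3 without both libraries of replicate 1. With a filter at 5 FPKM the falls numbered 2, and the other fallen genes did not pass that filter. Glrx, the cytosolic glutaredoxin gene, had 16.1, 16.2 and 14.9 FPKM with vesicles, against 3.79, 4.35 and 4.78 FPKM with PBS (log2 fold change 1.66, limma adjusted p = 1.7e-05). Txn1, the cytosolic thioredoxin gene and the partner of Txnrd1, averaged 280 ± 25.0 FPKM with vesicles and 181 ± 14.8 FPKM with PBS (0.63, adjusted p = 0.00162). Txnip, which binds and inhibits thioredoxin, fell by 0.68. The sestrin genes went opposite ways, Sesn2 by 0.68 and Sesn1 by -0.81. Among superoxide and peroxide enzymes, 1 of 9 tested was higher (Prdx3), 4 lower and 4 not called, or 11.1% and 44.4% beside the same background. Median-of-ratios scaling, or dropping both replicate 3 libraries, gave 2 higher. The falls were led by the secreted glutathione peroxidase gene Gpx3 (-1.18) and by Prdx4, the peroxiredoxin of the endoplasmic reticulum (-0.76).

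Regulators of NRF2 had 3 of 11 higher, 4 lower and 4 not called, so that the 36.4% lower was near the 35.6% of all tested genes and the 27.3% higher stood beside 18.4%. Median-of-ratios scaling gave 5 higher and 2 lower. Dropping both replicate 1 libraries left 1 higher, and dropping both replicate 3 libraries left 2 lower. Bach1, a repressor that competes for AREs, fell to 14.9 ± 0.667 FPKM with vesicles, against 23.8 ± 2.33 FPKM with PBS (log2 fold change -0.63, limma adjusted p = 0.000783). Of the small Maf partners, Mafk fell by 0.80 and Mafg rose by 0.32, a rise no longer called when both replicate 1 libraries were dropped (adjusted p = 0.0501). Nfe2l1, a relative of Nfe2l2, rose by 0.74 where Nfe2l2 fell. Rbx1, a subunit of the ligase that degrades NRF2, rose by 0.20, a call lost when K7M2-EV replicate 1 or 3 or PBS replicate 1 or 3 was left out (adjusted p = 0.0532 to 0.0723) after dropping both libraries of replicate 1 or 3 (0.144 and 0.157), after quantile normalization (0.0523) and with voom (0.0911). Keap1, named after its values were seen, averaged 6.03 ± 0.240 FPKM with vesicles and 5.74 ± 0.213 FPKM with PBS and was not called (0.06, 95% interval -0.07 to 0.19, adjusted p = 0.372). It was called higher after median-of-ratios scaling (0.19, adjusted p = 0.0245).

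**Figure D4:**
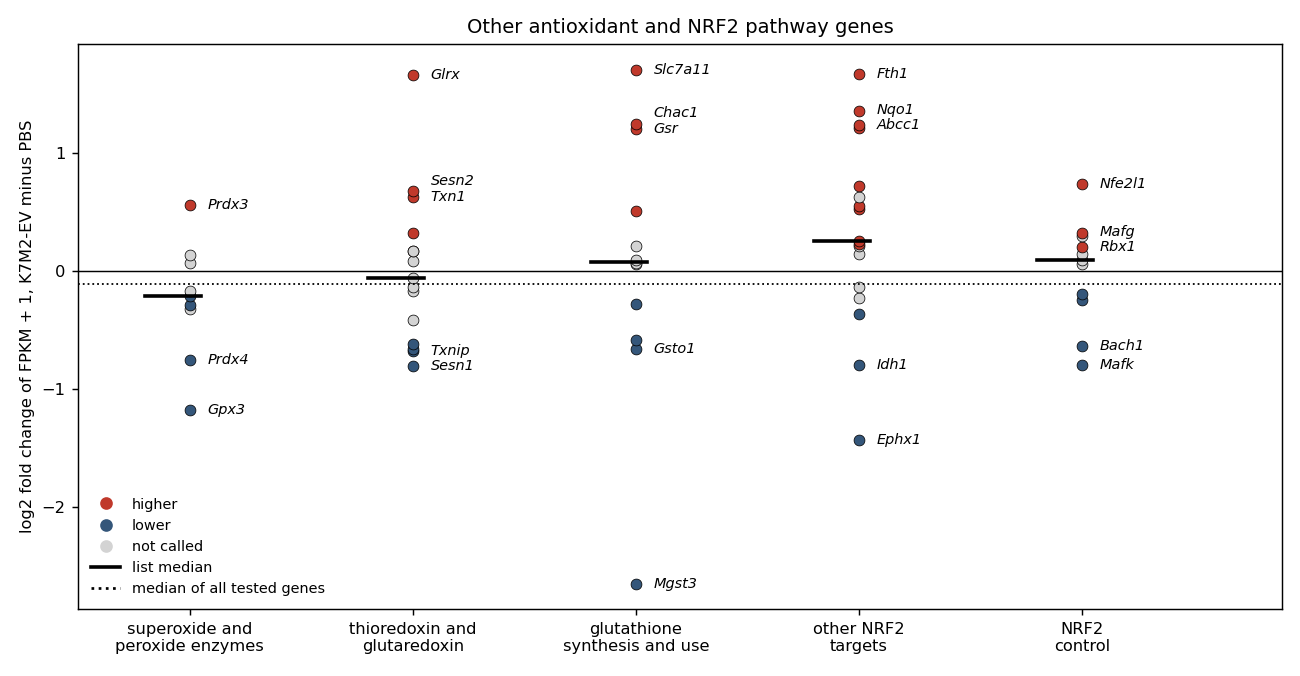
Log2 fold change of FPKM + 1, K7M2-EV minus PBS (y axis), for the 64 tested genes of the 5 lists (x axis), 1 point per gene from the limma fit over 3 libraries per group; red points were called higher, blue lower and grey not called. Thick bars are list medians, from -0.22 for superoxide and peroxide enzymes to 0.25 for other NRF2 targets, and the dotted line is the median of all tested genes at -0.12.

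Genes like Sod2 and Nfe2l2 were sought among tested genes outside the 10 with a mean of at least 5 FPKM over the 6 libraries. Predicted and clone names were skipped. Of these, the most like Sod2 in log2(FPKM + 1) values relative to the PBS mean were Socs3, AW112010 and Gpr84. Their root mean square differences over the 6 libraries were 0.181, 0.195 and 0.197. Their PBS means were 1.04, 1.16 and 2.20 FPKM, so they passed that mean only through the vesicle libraries. Socs3 had 44.8, 46.3 and 43.5 FPKM with vesicles, against 0.650, 1.71 and 0.770 FPKM with PBS. Those most like Nfe2l2 were Rammet, Pdpr and Nbr1, with differences of 0.0257, 0.0296 and 0.0439. This measure mostly reads the size of the change on the FPKM + 1 scale, since the libraries form only 2 groups. On FPKM itself the ratios of means were 42.98 for Socs3, 49.35 for AW112010 and 32.47 for Gpr84, against 25.1 for Sod2.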

How the data were processed

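FPKM values, 1 table per library with 26883 rows, were deposited by the authors. Tools listed in the submitters' processing notes, with no role given, are HISAT2 2.1.0, CASAVA 1.8, edgeR and StringTie 1.3.4b, and the build is GRCm38. Per the labels' protocols, total RNA was used with an NEB Ultra RNA library kit. A row without a value (1) and repeated symbols (47, keeping the highest mean) were dropped. Lengths and positions came from GENCODE M21 (99.5% of genes matched); FPKM times exon length was whole within 0.1 for 72.4% to 73.3% of values worth up to 20 reads, where chance gives 20%, which gave the implied reads. Intervals cover the spread between libraries. A gene was tested if 3 or more libraries reached 1 FPKM. The test used log2(FPKM + 1), which understates changes of low genes, and limma 3.58.1 in R 4.3.3 (trend and robust settings) and no further scaling. The ratio of Sod2 to Sod1 was tested by exact permutation with scipy 1.17.1. Copies were sought with BLAST 2.17.0 at 90% identity over 300 bases. Named genes were the 10, the called list genes with the largest changes (up to 3 rises and 2 falls per list) and the mitochondrial class. The genes and lists were chosen with earlier results of these data known. Same-numbered libraries deviated together (correlations 0.317, 0.294 and 0.209 over genes, other pairings at most 0.0232). Replicate numbers were therefore treated as pairs in some alternatives: the replicate block, the paired ratio test and the dropping of both libraries of a number. This pairing rests on the data, not on a label. The main values in the text come from the unblocked fit and the unpaired permutation test, which leave the pairing out. The fit was also run on simulated data with few changed genes, random directions and no pairing. Those settings differ from these data, so that run does not bear on the calls given here. Alternatives were other pseudocounts, filters and scalings, a voom fit, the replicate block and left-out libraries.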

Additional observations from a re-analysis of the deposited data

How the results depend on the processing

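Over 18 alternative fits (17 for Prdx6), Sod2, Prdx5, Gclm, Cat and Nfe2l2 kept their direction and call in each, at 4.47 to 4.69, 2.91 to 3.13, 0.93 to 1.09, 0.38 to 0.61 and -0.56 to -0.33. Leaving out libraries, the count of the 10 genes called higher was 4 to 6 and lower 1 to 2. Of all tested genes, 1283 to 2390 were then called higher and 2186 to 4253 lower. A filter at 5 FPKM gave 2153 lower of 6409 genes tested, against 4631 of 13009 in the main fit. With the replicate block 6 of the 10 were higher and 1 lower, 23 and 19 of the other genes, and 2495 and 4787 of all; the block ended the call of Ccs, the copper chaperone gene of Sod1 (-0.22, adjusted p = 0.0684), and no other call of a named gene. The log2 ratio of Sod2 to Sod1 differed by 4.74 to 4.85 without single libraries, by 4.70 with a pseudocount of 1 and by 4.805 with the pairing (exact p = 0.25, the smallest possible). With lengths of the longest coding transcript, an alternative chosen after seeing the data, the mean log2 ratio of Sod2 to Sod1 was -0.63 with vesicles and -5.43 with PBS, against 1.23 and -3.57 as deposited. Signs turned in values not called with all libraries: Prdx6 (0.0227 after median-of-ratios scaling, 0.0193 after quantile scaling, -0.157 to 0.0047 with libraries left out), Srxn1 (-0.0043 quantile, -0.0469 voom, -0.0476 to 0.1145 with libraries left out), Txnrd2 (0.0207 quantile), Glrx5 (0.0589 median-of-ratios, 0.0246 quantile), Keap1 (-0.0136 voom) and Gpx1 (-0.884 to 0.744 with libraries left out, above 0 without a replicate 3 library); the cause was not tested. Each of the 10 genes had at least 442 implied reads per library, and 3 libraries per group limit the precision.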

Other observations

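Sod3, the gene of the extracellular superoxide dismutase, stayed below the filter. It was listed at 0.367, 1.36 and 0.278 FPKM with vesicles and at 0.0243, 0.163 and 0.0937 FPKM with PBS. In each group it was highest in replicate 2, the replicate with the highest summed stromal markers. The same held for Gpx8, at 3.67, 9.43 and 3.80 FPKM with vesicles and 4.20, 11.5 and 4.09 FPKM with PBS, for Gpx7, at 1.10, 3.03 and 1.00 FPKM with vesicles and 1.10, 2.43 and 1.06 FPKM with PBS, and for Msrb3, at 1.58, 4.55 and 1.90 FPKM with vesicles and 2.45, 6.54 and 2.79 FPKM with PBS. Those genes were named after their values were seen.

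Gpx1, the gene of the main cytosolic glutathione peroxidase, also named after its values were seen, had 46.6, 49.2 and 15.2 FPKM with vesicles, against 26.2, 30.3 and 87.6 FPKM with PBS. Replicate 3 was the lowest vesicle library and the highest PBS library. Without both libraries of replicate 3 the log2 fold change was 0.74 (limma, adjusted p = 0.0136), against -0.32 (adjusted p = 0.677) with all 6.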
